A study of Mus musculus with 21 samples.

Results

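The genes of the cytosolic ribosomal proteins were followed through 21 libraries of translating ribosome affinity purification (TRAP) and total RNA from mouse embryos. Members were chosen by gene symbol alone: Rpl or Rps followed by a number and an optional suffix, plus Rplp0, Rplp1, Rplp2 and Rpsa, without the S6 kinases (Rps6k genes), Rps19bp1 and Rpl7l1. The rule found 84 genes among the 23827 rows of the expression tables, 51 of the large subunit and 33 of the small subunit. For Rpl30 and Rpl34, which were listed more than once, the row with most reads was used.

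Ribosomal proteins assemble with ribosomal RNA into the large and the small subunit that together translate mRNA. Their mRNAs are short and abundant, and many begin at a C followed by a run of pyrimidines, the terminal oligopyrimidine (TOP) tract, through which the mTOR pathway and the RNA-binding protein LARP1 control their translation together. In mammals most ribosomal protein genes have left processed pseudogenes, intronless copies of its mRNA inserted elsewhere in the genome, so that a short read of the mRNA can fit several places. In TRAP a tagged ribosomal protein of the large subunit, here RPL10A fused to the red fluorescent protein mCherry, is pulled down together with its ribosome and the mRNA that the ribosome carries.

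All animals were at embryonic day 14.5, and all carried 1 copy of a reporter, Gt(ROSA)26Sor-mCherry-Rpl10a+/-, which makes the fusion protein only in cells in which Cre recombinase has been active. Each of the 7 groups had 3 libraries. With Sox2Cre+/-, which acts in the whole embryo proper, total RNA of forebrain and of kidney gave the brain and kidney transcriptomes and the precipitated RNA gave the brain and kidney translatomes. With Cdh5CreERT2+/-, an endothelial Cre induced with tamoxifen, forebrain and kidney gave the brain and kidney endothelial cell (EC) translatomes. With Emx1Cre+/-, active in the dorsal forebrain lineage, forebrain gave the Emx1 translatome. Organs were pooled for each library, and the reporter line came from a single targeted clone. Since every animal carried the fusion allele, there was no group without it, and reads of the Rpl10a coding sequence may come from the endogenous gene or from the fusion. Libraries held between 21760652 and 79231692 counted reads.

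The labels of the groups fitted their marker genes. The summed level of 7 endothelial markers was between 2670 and 2800 RPKM (reads scaled by the counted length of the gene and by library size) in the brain EC translatome against 137 to 158 in the brain translatome, and between 1770 and 2060 in the kidney EC translatome against 316 to 341 in the kidney translatome. In the Emx1 translatome it was between 12.5 and 14.4. Neural markers still summed to between 312 and 419 RPKM in the brain EC translatome, against 1760 to 1800 in the brain translatome, and kidney markers to between 71.2 and 89.1 in the kidney EC translatome, against 379 to 416 in the kidney translatome. Bulk RNA cannot tell fewer cells of a type from less RNA per cell.

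Most members share much of their coding sequence with other annotated genes, and what this did to the counts was not tested. The expression tables do not say how a read that fits several places was counted, and the coding sequences leave little room: cut into windows of 50 bases, a median of 9.2% of a member's windows occurred in no other annotated gene (GENCODE vM21, build GRCm38), and 45 of the 84 members had under 10% unique windows. At 90% identity over 80% of the coding sequence, 78 members had at least 1 annotated pseudogene copy and 36 had at least 10, with 987 copies in all and at most 76 for a single gene (Rpl7a and Rpl21). At the same identity over 80% of the whole mRNA, 22 members had a copy. For Rpl10a, the tagged protein's own gene (chromosome 17, 28328471 to 28331033, plus strand, 6 exons), the pseudogene Rpl10a-ps1 on chromosome 1 (64993951 to 64994604) matched the coding sequence at 100% of its bases. Coding bases 91 to 120 of Rpl10a are shown as an example. This stretch is the same, letter for letter, in gene and copy, so a read lying wholly within it fits both:
Rpl10a: acggtggagctgcagatcagcctgaagaac
The same was true of bases 91 to 120 of Rps2 (chromosome 17, 24718116 to 24721929, plus strand), whose nearest copy, Rps2-ps13 on the X chromosome, matched 99.2% of its coding bases:
Rps2: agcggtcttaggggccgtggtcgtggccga
Some paralogs differ more from their partner, though neither Rpl36al nor its partner Rpl36a had a unique window. Rps27l encodes a protein closely related to RPS27, an outer component of the small subunit, and 76.2% of the Rps27 coding bases matched it. Bases 51 to 80 of the Rps27 coding sequence are shown above the aligned stretch of Rps27l, with the 6 differing bases in capitals:
Rps27: GaaacaCaagaaAaaGcgCctggtGcagag
Rps27l: AaaacaTaagaaGaaAcgGctggtTcagag
Rpl3l, a paralog of Rpl3 known from striated muscle, matched 73.9% of the Rpl3 coding bases, and bases 51 to 80 differ at 8 places, again in capitals:
Rpl3: gccTcGcaagCgCagcAgCcggcaTcgTgg
Rpl3l: gccCcAcaagAgGagcCgGcggcaCcgGgg

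A start window was found for 62 of the 84 members in RefSeq (GRCm38.p6). A C followed by at least 4 further C or T, beginning within 10 bases of an annotated start and read on the strand of the gene, was present in 39 of the 62 (62.9%), against 6111 of 17492 protein-coding genes with a window (34.9%). The search is for these letters alone, and annotated starts may lie some bases from the start used in these tissues. The windows of 5 members that the results turn on are given from 10 bases before to 20 bases from the annotated start, with the run in capitals. Rpl15, with a run of 17 bases, and Rps15a, with a run of 8, were lower in endothelial translatomes, while Rpl38, Rps27l and Rps21 rose strongly in whole-organ translatomes:
Rpl15, chr14:18270967-18270996, minus strand: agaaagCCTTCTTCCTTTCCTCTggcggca
Rps15a, chr7:118116128-118116157, minus strand: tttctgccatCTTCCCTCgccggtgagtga
Rpl38, chr11:114668570-114668599, plus strand: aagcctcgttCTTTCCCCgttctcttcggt
Rps27l, chr9:66946076-66946105, plus strand: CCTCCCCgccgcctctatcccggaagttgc
Rps21, chr2:180257369-180257398, plus strand: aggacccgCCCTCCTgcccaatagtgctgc
A window of Rpl10a, the gene of the tagged protein, also held a run. Rpl10a, Rps27l and Rps21 each have another annotated start whose window held none, and the window with the run is printed. The windows of Rplp0 and Rpl4, with log2 fold changes of 0.19 and 0.21 in brain that missed the threshold, held no run. The same was true of Rpl41, Rpl37, Rpl37a, Rps15, Rps16, Rpl36al and Rps3, which rose in brain by 0.96 to 1.30 on the log2 scale, so that members with and without a run were among those that rose. The windows of Rpl10a, Rplp0 and Rpl4 read:
Rpl10a, chr17:28328461-28328490, plus strand: gCCCCCCCagcggccgcaaactgcagcgcc
Rplp0, chr5:115559457-115559486, plus strand: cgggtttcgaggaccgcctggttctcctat
Rpl4, chr9:64173377-64173406, plus strand: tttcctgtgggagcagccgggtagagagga

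Counted levels of the members spanned more than 3 orders of magnitude. Averaged over the 21 libraries, Rpl8 (1117 RPKM), Rps15 (732 RPKM), Rpl4 (694 RPKM) and Rps9 (615 RPKM) were among the highest. At the other end, Rps28 stood at 1.44 RPKM, Rpl23a at 1.27 RPKM, Rpl39l at 0.185 RPKM and Rpl3l at 0.145 RPKM, and Rpl10l, a testis paralog of Rpl10, had no read in any library. Of all members, 25 had a mean over 100 RPKM and 23 a mean below 5 RPKM.

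The level followed the uniqueness of the coding sequence. Over the 78 members that are not paralogs of another member, mean RPKM and the percentage of unique windows had a Spearman correlation of 0.79, and over all 84 members 0.60 (a description over genes of the same libraries). The 45 members with under 10% unique windows had a median of 7.62 RPKM, the 20 members from 10% to under 30% a median of 63.7 RPKM, and the 9 members from 30% to under 60% a median of 493 RPKM. The 10 members with 60% or more had a median of 323 RPKM, below that of the bin before it, and spanned 0 to 1117 RPKM. Rpl8 had no pseudogene copy. Levels of different members were therefore not compared as amounts of mRNA. RPKM values also used a counted length that was under 0.5 of the annotated mRNA for 8 members; that of Rpl26 came to 23 bases, with at most 18 reads in a library.

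**Figure D1:**
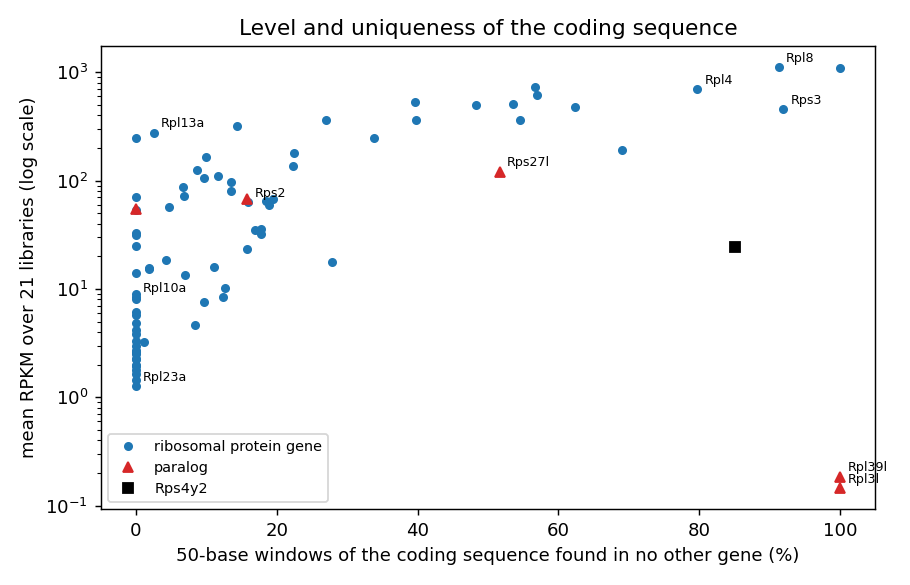
Mean RPKM over 21 libraries (log scale) of each member with a read, against the percentage of 50-base windows of its coding sequence that occurred in no other annotated gene; Rps4y2, with no annotated coding sequence, is placed by its whole transcript. Circles are ribosomal protein genes and triangles their paralogs; Rpl8 lies at the upper right, while Rpl3l and Rpl39l have fully unique sequences and levels below 1 RPKM.

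The share of counted reads that fell on the members differed between groups. It was 0.598% ± 0.042 (SD, n = 3) in the brain transcriptome, 0.981% ± 0.044 in the brain translatome, 1.01% ± 0.031 in the Emx1 translatome and 0.752% ± 0.016 in the brain EC translatome. In kidney it was 0.991% ± 0.035 in the transcriptome, 1.22% ± 0.048 in the translatome and 0.911% ± 0.053 in the EC translatome. In both organs the translatome was above the transcriptome in each library, from 0.931% to 1.01% against 0.558% to 0.642% in brain and from 1.16% to 1.25% against 0.951% to 1.02% in kidney. The order from low to high was brain transcriptome, brain EC, kidney EC, brain translatome, kidney transcriptome, Emx1 and kidney translatome; neighbours from the kidney EC translatome to the Emx1 translatome overlapped in their libraries. These shares hold only what could be counted of each gene.

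**Figure D2:**
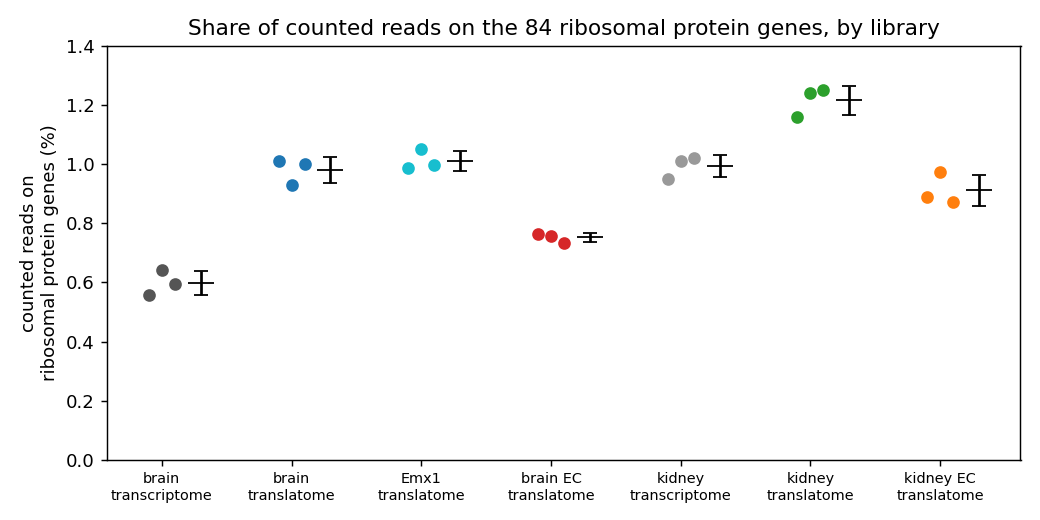
Percentage of all counted reads that fell on the 84 ribosomal protein genes, in each library (points) of the 7 groups, with the mean and SD of the 3 libraries in black. Both whole-organ translatomes lie above their transcriptomes, and both EC translatomes lie below the translatome of their organ.

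The first comparison asked which of the mRNAs in an organ were carried by ribosomes more or less than their share of the total RNA. In brain, members were mostly higher in the translatome than in the transcriptome. Of 83 members tested, 49 rose and 3 fell at an adjusted p under 0.001 (edgeR quasi-likelihood test, Benjamini-Hochberg adjustment over all rows); over all 19446 rows 18.6% rose and 18.5% fell. Members had a median of 0.79 on the log2 scale and all rows one of -0.01. Both subunits moved alike, with 27 of 50 large subunit genes (median 0.74) and 22 of 33 small subunit genes (median 0.83) higher. With same-numbered libraries, which came from the same tissue, as a block, 57 rose and 5 fell, the latter also including Rpl9 and Rpl17. The shares of all rows above belong to the fit without that block.

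In kidney 30 of 83 members rose and 4 fell, with 14.9% of all 19336 rows higher and 15.8% lower, and the members' median was 0.29 on the log2 scale, against -0.03 for all rows. With the tissue as a block, 43 rose and 11 fell. With the sequencing run as a term in the fit, 20 rose and 1, Rpl12, fell. The shares of all rows above belong to the fit with neither block nor run. Of the members called higher, 29 were called in both organs, which is 59.2% of the brain list and 96.7% of the kidney list; Rpl35a was called in kidney alone, and its brain libraries split into separate levels as described below.

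Genes with short mRNAs as a whole were higher in the translatomes. Of 837 other mRNAs above 1 RPKM with a counted length of up to 1000 bases, a stratum set after the results were seen, 77.1% were called higher in brain, and their median on the log2 scale was 1.01. In kidney, 58.9% of 856 such mRNAs were higher, with a median of 0.71. The members above 5 RPKM, 57 in brain and 63 in kidney, had medians of 0.85 and 0.45. The 73 genes of the mitochondrial ribosome, which translate in another compartment but whose own mRNAs are translated in the cytosol, had 58 higher in brain (median 0.83) and 46 higher in kidney (median 0.51), and none fell at that threshold in either organ. The members' median was above that of all rows and below that of the other short mRNAs in both organs.

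Within the set the change followed the length of the coding sequence. Over the 61 members with a mean of at least 5 RPKM, coding length and log2 fold change had a Spearman correlation of -0.72 in brain and -0.71 in kidney, and of 0.11 and 0.018 with the percentage of unique windows (descriptions over genes). These 61 include Rps4y2, which has no annotated coding sequence and entered with a coding length of 0. Short members led. Rps27l was at 35.2, 37.8 and 35.9 RPKM in the brain transcriptome and at 121, 111 and 110 RPKM in the brain translatome. It was at 64.1, 65.8 and 84.1 RPKM in the kidney transcriptome and at 202, 215 and 213 RPKM in the kidney translatome, with no overlap in either organ. Its log2 fold change was 1.68 ± 0.07 (SE, adjusted p = 2.8e-10) in brain and 1.57 ± 0.09 (adjusted p = 3e-07) in kidney.

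Rps29, which encodes a small zinc-binding protein of the small subunit, was highest in brain, with 49, 61 and 41 reads in the transcriptome and 202, 95 and 101 in the translatome (1.88 ± 0.19, adjusted p = 1.1e-06); in kidney it was at 0.97 ± 0.15 (adjusted p = 0.00035), and at 0.79 with an adjusted p of 0.015 when the run was a term. Rpl38, the large subunit protein whose loss changes Hox mRNA translation and the axial skeleton in mice, had log2 fold changes of 1.48 ± 0.15 in brain and 0.98 ± 0.15 in kidney, the latter with an adjusted p of 0.00028, which became 0.0048 with the run as a term. Rps21 was at 156, 182 and 163 RPKM in the brain transcriptome against 438, 376 and 418 RPKM in the translatome (1.32 ± 0.068, adjusted p = 1.3e-09), and at 1.01 ± 0.042 in kidney (adjusted p = 5.1e-08). Rpl30 followed in brain (1.34 ± 0.17, adjusted p = 7.2e-06). Rpl41, which encodes the smallest of the ribosomal proteins with a coding sequence of 75 bases, was at 1.10 ± 0.065 in kidney (adjusted p = 3.8e-07).

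Longer members had lower values, some of them below 0 in kidney. Rpl4 was at 527 ± 22.3 RPKM in the brain transcriptome and at 596 RPKM in the translatome (log2 fold change 0.21 ± 0.057, adjusted p = 0.0064), and at -0.21 ± 0.073 in kidney (adjusted p = 0.032). With the tissue as a block both passed the threshold, higher in brain (adjusted p = 0.00097) and lower in kidney (adjusted p = 2.6e-08). Rps2 gave 0.10 in brain and -0.44 in kidney, without passing the test; under the block the kidney value was -0.43 and passed it (adjusted p = 3.8e-24). Rpsa, the laminin receptor homolog of the small subunit, gave 0.20 ± 0.14 and -0.19 ± 0.097, with adjusted p of 0.24 and 0.14.

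The P-stalk, through which elongation factors reach the ribosome, has a long and a pair of short members. Rplp0, the long base of the stalk, was at 283, 305 and 289 RPKM in the brain transcriptome and 345, 309 and 326 RPKM in the translatome (log2 ratio 0.19 ± 0.059, adjusted p = 0.014). Its short partners Rplp1 and Rplp2, with coding lengths of 342 and 345 bases, gave 0.72 ± 0.064 (adjusted p = 2.7e-07) and 1.15 ± 0.073 (adjusted p = 1e-08), a gap not matched by their lengths. In kidney the 3 values were -0.15, 0.19 and 0.68, of which Rplp2 alone passed the test; under the block all 3 did, Rplp0 lower (adjusted p = 0.00021) and Rplp1 higher (adjusted p = 1.1e-06).

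Rpl10a, the gene of the tagged protein, was at 6.35, 6.43 and 6.38 RPKM in the brain transcriptome and at 7.64, 6.07 and 5.89 RPKM in the translatome, so that the groups overlapped (log2 fold change 0.07 ± 0.12, adjusted p = 0.66). In kidney it was at 15.7, 14.6 and 15.6 RPKM in the transcriptome and at 11.6, 12.5 and 9.06 RPKM in the translatome, lower in every library, with -0.47 ± 0.12 (adjusted p = 0.0077, and 3.1e-08 with the tissue as a block). No 50-base window of its coding sequence was unique, so these reads are those that the counting kept of it, from either allele.

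In the fits without the tissue block, the members that fell were Rps18, Rpl12 and Rpl10 in both organs and Rpl9 in kidney. With the block, 5 fell in brain and 11 in kidney, the latter including Rpl4, Rplp0, Rps2, Rpl3 and Rpl10a. Log2 fold changes below are those without the block. Rps18 had 90, 118 and 78 reads in the brain transcriptome and 19, 9 and 6 in the translatome (log2 fold change -2.56 ± 0.26, adjusted p = 1.2e-06), and 179, 118 and 87 against 13, 11 and 19 reads in kidney (-2.31 ± 0.25, adjusted p = 1.9e-05). Rpl12 had 135, 138 and 148 against 45, 21 and 30 reads in brain (-1.63 ± 0.19) and 439, 327 and 247 against 48, 43 and 44 in kidney (-2.08 ± 0.13). Rpl10 fell by 1.16 in brain and by 1.57 in kidney on the log2 scale, and Rpl9 by 1.45 in kidney. Rpl12, Rpl10 and Rpl9 had no unique window and Rps18 had 12.3%. All members that fell without the block had under 30% unique windows. So did most of the set, with 45 members under 10% and 20 from 10% to under 30%. Rpl4 and Rplp0, lower in kidney with the block, had 79.7% and 39.7%. Rpl38, Rpl41, Rps16 and Rps29, like Rpl12, had no unique window, and they were called higher in brain. The part of read placement in these falls was not tested. Over the 45 members with under 10% unique windows the median log2 fold changes were 0.61 for brain and 0.13 for kidney, and over the 20 members from 10% to under 30% they were 0.89 and 0.47. They were 1.03 and 0.62 over the 9 members from 30% to under 60%, and 0.82 and 0.35 over the 9 tested members with 60% or more.

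**Figure D3:**
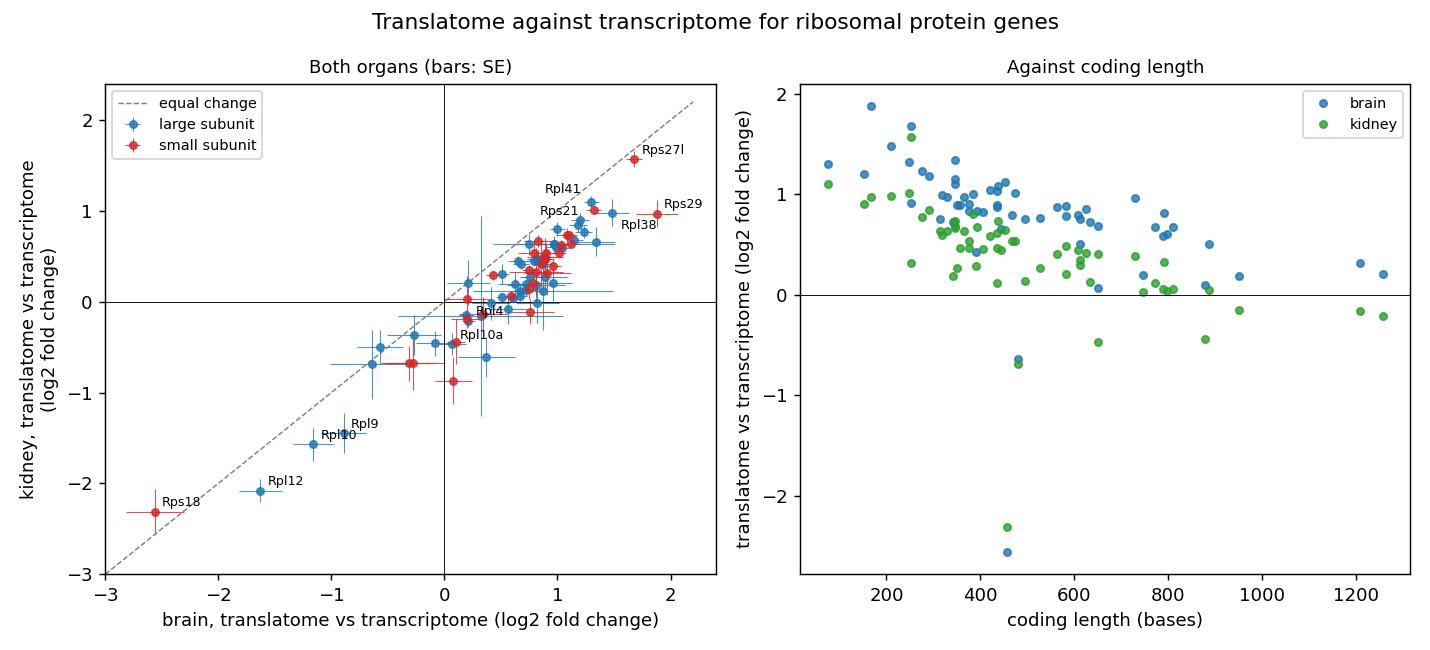
Left, log2 fold change of translatome over transcriptome in kidney against that in brain for members with a mean of at least 1 RPKM, with SE bars and the line of equal change. Right, the same values against coding length for members with an annotated coding sequence and a mean of at least 5 RPKM. Most members lie above 0 in brain and below the line of equal change, Rps27l is highest in kidney, and in both organs the values fall with coding length.

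The 3 ribosomal protein genes outside the symbol rule all rose in brain (median 0.94 on the log2 scale), while the other TOP mRNAs moved less evenly. Fau, which encodes a ribosomal protein fused to a ubiquitin-like sequence, and Gnb2l1, the scaffold RACK1 of the small subunit, rose in brain by 0.94 and 0.37 on the log2 scale and gave 0.36 and -0.11 in kidney, where neither passed the test. Rps27a, a member of the set that encodes a ubiquitin fusion, gave 0.79 ± 0.14 in brain (adjusted p = 0.00018) and 0.54 ± 0.14 in kidney (adjusted p = 0.0067). Of 13 TOP mRNAs of translation factors and related proteins, 4 rose and 1 fell in brain (median 0.09) and none rose and 1 fell in kidney (median -0.09). Eef1b2 led in brain at 0.65 ± 0.063 (adjusted p = 6.6e-07), and Nap1l1, a histone chaperone, fell in both organs by 0.35 and 0.42. The elongation factor mRNAs Eef1a1 and Eef2 gave -0.06 and -0.10 in brain and -0.36 and -0.39 in kidney, and passed the test in neither. Tpt1 rose in brain (0.52 ± 0.078) and Pabpc1, the poly(A)-binding protein, gave -0.10 in brain and 0.05 in kidney.

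Of 16 genes that control TOP translation, 3 rose and 9 fell in brain, and 4 rose and 8 fell in kidney. The kinase Mtor fell furthest in brain (-2.21 ± 0.064, from a mean of 19.0 to 4.02 RPKM) and in kidney (-1.36 ± 0.056), and Eif4ebp1, the repressor that mTOR inactivates, rose in both (1.20 ± 0.11 and 0.98 ± 0.089). Larp1 fell in kidney (-0.39 ± 0.049, adjusted p = 5.9e-05) and was at -0.24 in brain without passing the test. Of 35 ribosome biogenesis genes 9 rose and 11 fell in brain and 4 rose and 17 fell in kidney. Nop10, a short snoRNP component, was highest (1.49 and 1.15) and Taf1a, of the RNA polymerase I selectivity factor, lowest (-1.37 and -1.19).

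Red cell RNA differed between the compared libraries. The summed level of 7 red blood cell genes in the table was 308 to 543 RPKM in the brain transcriptome against 34.4 to 57.6 RPKM in the translatome, and 426 to 504 against 14.7 to 42.2 RPKM in kidney, with Hba-a1 and Hba-a2 listed at 0 in every group. Its part in the members' change was not tested.

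The difference between the organs was tested directly, as the brain log2 fold change minus that of kidney. It was above 0 for 80 of 83 members, with a median of 0.41 against 0.00 for all rows, and 7 members passed the test, all higher in brain (2.35% of 20108 rows were called in that direction and 4.12% in the other). These were Rpl7 (0.59 ± 0.082), Rps9 (0.55 ± 0.096), Rpl7a (0.55 ± 0.075), Rplp1 (0.51 ± 0.086), Rps4x (0.51 ± 0.082), Rpl6 (0.45 ± 0.072) and Rpl23 (0.43 ± 0.071), all of them named for this test result. With the tissue as a block 31 members passed, all in the same direction. The shares of all rows above are those of the fit without the block. For Rpl7, the brain levels rose from 116, 133 and 128 RPKM to 200, 189 and 200 RPKM, while those of kidney were 197, 212 and 213 RPKM in the transcriptome and 198, 227 and 222 RPKM in the translatome. Short mRNAs outside the set had a median difference of 0.29, with 6.25% of 880 called in that direction, and mitochondrial ribosomal protein genes one of 0.31, with 7 of 73.

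The transcriptomes themselves differed in the opposite direction. Of 83 members, 45 were lower in the brain than in the kidney transcriptome and none was called higher, with 26.3% of all 19841 rows lower and 27.2% higher; the median log2 fold change was -0.62. At an unadjusted p under 0.05, 75 members differed, and 79 of the 83 estimates were below 0. The share of all rows at that unadjusted p is not given here. Rpl10a (-1.07 ± 0.082, adjusted p = 4.4e-07) stood at 6.39 RPKM in brain and 15.3 in kidney, Rps29 gave -1.45 ± 0.18 (adjusted p = 2.5e-05), Rpl12 -1.36 ± 0.12 and Rplp1 -0.79 ± 0.064. Rpl15 (0.28 ± 0.082, adjusted p = 0.01) and Rps15a (-0.01) were not lower in brain. Of the 35 ribosome biogenesis genes 28 were lower and 1 higher in brain, with the nucleolar protein Npm1 lowest (-1.45). Run and organ cannot be told apart here, since the kidney transcriptomes shared a run with no brain library.

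Between the translatomes of EC and of the whole organ, fewer members were called than among all rows. In brain EC, 5 of 83 members were higher and 4 lower than in the brain translatome, with 24.8% and 21.4% of all 19103 rows higher and lower, and the members' median was -0.15 on the log2 scale. In kidney EC none was called higher and 2 were lower, with 16.7% and 15.0% of 18940 rows. There 21 members had an unadjusted p under 0.05, and DESeq2 called 5 lower and none higher. Shares of all rows are not given for these counts, which were not set against the background. The EC comparisons depend on the scale. When libraries were scaled by their total counts, the median over all rows went to -0.30 in brain and -0.41 in kidney, the members' median to -0.45 in both, and 31 members were called lower in each organ, with 2 higher in brain and none in kidney. All EC libraries were sequenced in other runs than those of the whole organs, and run and cell type cannot be told apart.

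Rpl15 and Rps15a were lower in EC of both organs. Rpl15, a protein of the large subunit near the exit tunnel, had 87.4, 71.2 and 79.5 RPKM in the brain translatome and 23.4, 27.2 and 24.2 RPKM in brain EC. In kidney it had 74.8, 56.9 and 66.3 RPKM in the translatome and 27.6, 29.4 and 29.4 RPKM in EC. Every EC library was below every library of the whole organ, with log2 fold changes of -1.38 ± 0.086 (adjusted p = 9.2e-09) and -0.84 ± 0.092 (adjusted p = 1.6e-05). Rps15a, of the small subunit, had 29.9, 28.0 and 27.1 RPKM against 14.5, 15.8 and 13.1 RPKM in brain and 27.5, 31.3 and 31.1 against 16.4, 16.6 and 15.9 RPKM in kidney (-0.68 ± 0.076, adjusted p = 3.4e-06, and -0.53 ± 0.061, adjusted p = 2.5e-05). Their counted lengths were 1854 and 5169 bases, against coding lengths of 612 and 390 bases, so most bases counted for them lie outside the coding sequence. Both organs' comparisons used separate libraries throughout. Deviations of same-numbered brain and kidney EC libraries from their group means were nevertheless correlated, at 0.40, 0.14 and 0.17.

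In brain EC, Rpl22 (-0.31 ± 0.066, adjusted p = 0.00091) and Rpl7a (-0.29 ± 0.06, adjusted p = 0.0008) were also lower, just inside the threshold. Rpl38 was higher (0.80 ± 0.12, adjusted p = 6e-05), with 54.0, 52.8 and 45.4 RPKM in EC against 42.1, 29.6 and 34.4 RPKM in the brain translatome and 28.2, 28.5 and 28.4 RPKM in kidney EC. Rps27l (0.51 ± 0.08, adjusted p = 9e-05) was at 119, 142 and 138 RPKM against 121, 111 and 110 RPKM, so that on the RPKM scale the libraries overlapped and on the normalised scale they did not. Rps4y2 (0.92 ± 0.15, adjusted p = 0.00011) is annotated as a transcribed processed pseudogene of 1 exon, related by name to Rps4x. Scaled by total counts, these 3 kept their direction and missed the threshold (adjusted p = 0.0024, 0.035 and 0.002).

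The paralogs Rpl3l and Rpl39l were detected mainly in brain EC. Rpl3l had 52, 53 and 45 reads in brain EC, 7, 8 and 9 in the brain translatome, 4, 6 and 4 in the brain transcriptome, 3, 0 and 0 in the Emx1 translatome and 0 in each kidney EC library. In kidney it had 6, 2 and 3 reads in the transcriptome and 1, 1 and 3 in the translatome. Brain EC exceeded the brain translatome by 2.22 ± 0.31 on the log2 scale (adjusted p = 3e-05). Against kidney EC, where a count of 0 allows up to 3 reads per library, the lowest brain EC library was at least 8.62-fold higher. Rpl39l, a paralog of Rpl39 known from testis, had 41, 38 and 31 reads in brain EC, 9, 7 and 3 in the brain translatome and 6, 1 and 0 in kidney EC (2.12 ± 0.35 against the brain translatome, adjusted p = 0.00012). Both stayed below 1 RPKM in every group, with all coding windows unique.

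**Figure D4:**
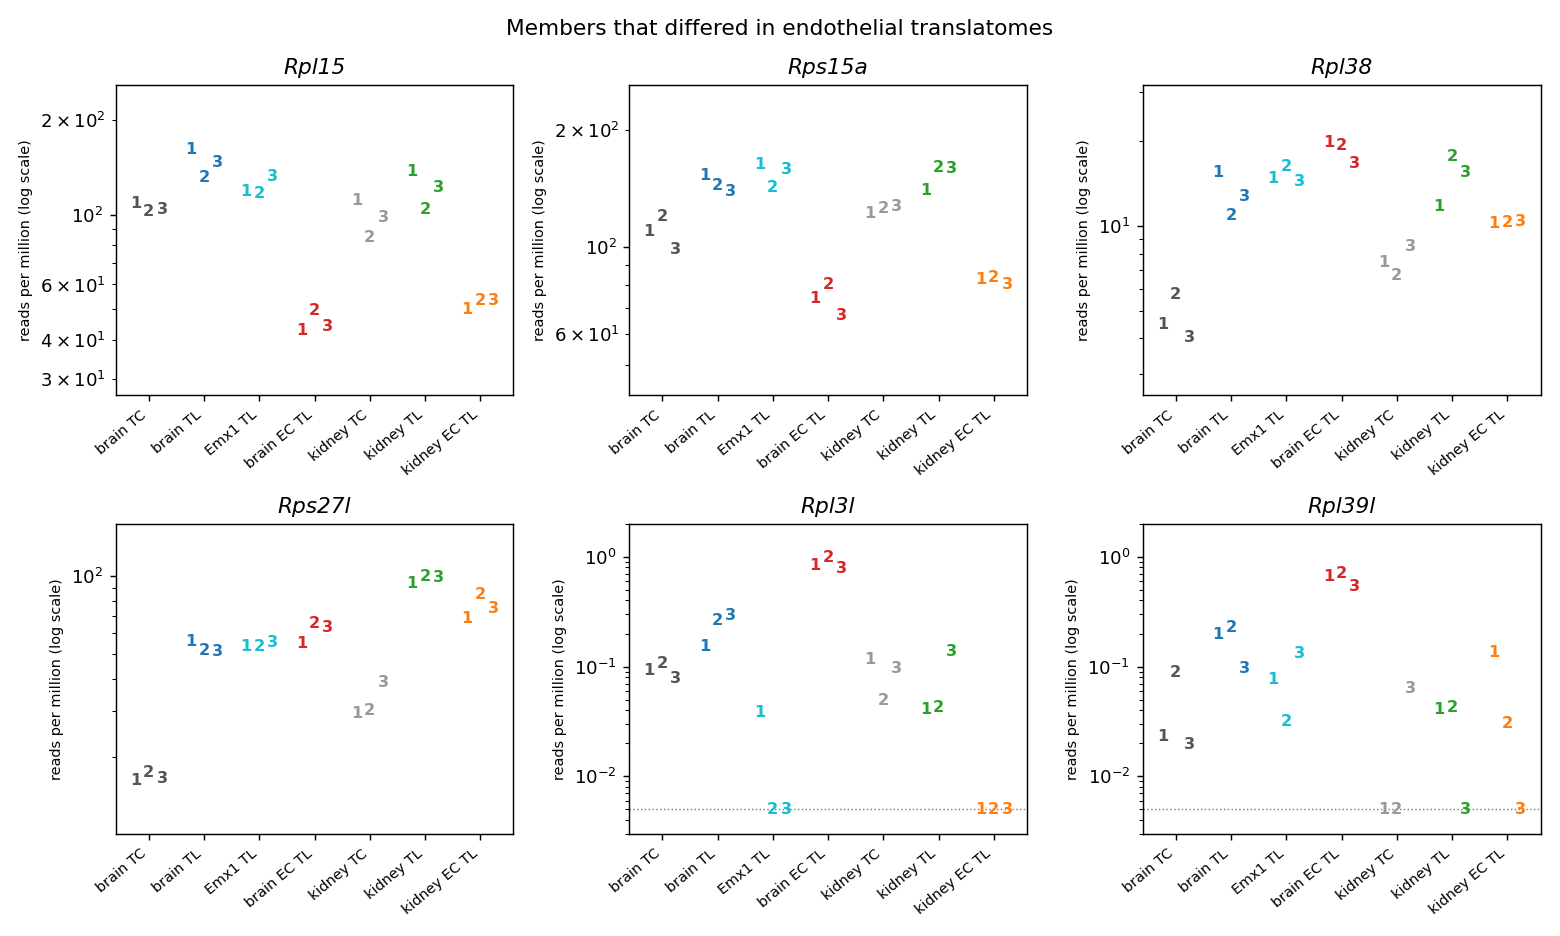
CPM, reads scaled to the library total (log scale), of 6 members in each library, drawn as its replicate number, by group (TC, transcriptome; TL, translatome); the dotted line marks 0 reads. Rpl15 and Rps15a lie lower in both EC groups than in any other group, and Rpl3l and Rpl39l are highest in brain EC.

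The EC of both organs also differed from each other. Of 83 members 3 were higher in brain EC (20.1% of 19238 rows) and 10 lower (16.9% of rows), with a median of -0.31 and 74 estimates below 0. Lower in brain were Rps29 (-0.80 ± 0.14, adjusted p = 0.00045), Rps27a (-0.71 ± 0.12), Rpl13 (-0.52 ± 0.091), Rplp2 (-0.45 ± 0.066, adjusted p = 0.00017), Rpl39, Rplp0, Rpl4, Rpl32 and Rpl18, among others. Only 1 member was called lower when any single brain EC library was left out, or kidney EC replicate 1 or 2, and 6 were called without kidney EC replicate 3. Higher were Rpl3l, Rpl39l (3.42 ± 0.60, adjusted p = 0.00053, and 0.0017 with same-numbered libraries as a block) and Rpl38 (0.88 ± 0.099, adjusted p = 1.9e-05). Of the ribosome biogenesis genes 24 of 35 were lower in brain EC, Dkc1 of the snoRNP complex most (-1.42).

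In the Emx1 lineage 3 members were higher than in the brain translatome and none was called lower, with 9.20% of 19006 rows higher and 12.8% lower, and the median was 0.08. DESeq2 called none lower either, and 37 members had an unadjusted p under 0.05, a count given without the share of all rows. Rpl22l1, the paralog of Rpl22, which was at 75.3, 74.4 and 75.9 RPKM against 63.9, 53.3 and 63.4 RPKM (0.37 ± 0.07), passed the test (adjusted p = 0.00051) and lost the call when scaled by total counts, with a filter of 10 counts, with a block or in a fit of all libraries (adjusted p from 0.0012 to 0.0018). Endothelial, macrophage and mural markers were lower in this group (medians -4.01, -4.06 and -3.19), and the ribosome biogenesis list had 17 of 35 genes higher and none lower. The other 2 members called were Rpl29 and Rps18.

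Rpl29 had 3219, 891 and 2037 reads in the Emx1 libraries and at most 30 in any of the other 18 libraries (log2 fold change against the brain translatome 7.62 ± 0.21, adjusted p = 1.3e-12). Rps18 had 1786, 833 and 1290 reads in the Emx1 libraries against 6 to 179 elsewhere (6.31 ± 0.15, adjusted p = 3.9e-13). Rpl29 encodes a small basic protein of the large subunit and has 62 pseudogene copies at 90% identity, and Rps18 has 11. The Emx1 libraries were all sequenced in a run of their own, so run and lineage cannot be told apart.

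Other members split within groups. Defined after seeing the values, a gene split where its highest library was at least 4-fold above its lowest in a group after normalisation, with at least 100 reads in the highest. Of 14461 rows with such a library 0.498% split in at least 1 group, and of 75 members 3 did (4.00%): Rpl3, Rpl35a and Rps2. For 52 members with at least 100 reads in every library, the median ratio of the highest to the lowest replicate was between 1.07 and 1.17 in the 7 groups.

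Rpl3, a core protein of the large subunit, had 125, 1487 and 1266 reads in the brain transcriptome and 74, 999 and 1035 in the translatome, so the libraries of tissue sample 1 were low in both. In kidney it had 277, 218 and 1549 reads in the transcriptome and 55, 51 and 1066 in the translatome, low in samples 1 and 2 and high in sample 3. In EC and Emx1 libraries it had between 768 and 3578 reads. With the tissue as a block its kidney log2 fold change went from -0.16 ± 1.1 to -0.38 ± 0.077 and passed the test (adjusted p = 2.6e-06). Rpl35a had 384, 621 and 104 reads in the brain transcriptome and 961, 540 and 96 in the translatome, low in sample 3 of both. Rps2 was high in all whole-organ and Emx1 libraries, with 1444 to 7362 reads, but in EC had 40, 1833 and 19 reads in brain and 29, 1537 and 35 in kidney, high in the library numbered 2 of each organ. Its mean of 11.8 RPKM in brain EC against 65.3 RPKM in the brain translatome did not pass the test (log2 fold change -2.20 ± 0.96, adjusted p = 0.063). Without EC replicate 2 the value was -6.75 ± 0.18 (adjusted p = 5.6e-14) in brain and -6.52 ± 0.30 (adjusted p = 1.2e-08) in kidney, and without any other library neither passed. Rpl3 has 21 pseudogene copies at 90% identity and Rps2 has 51. The part of read placement in these splits was not tested.

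**Figure D5:**
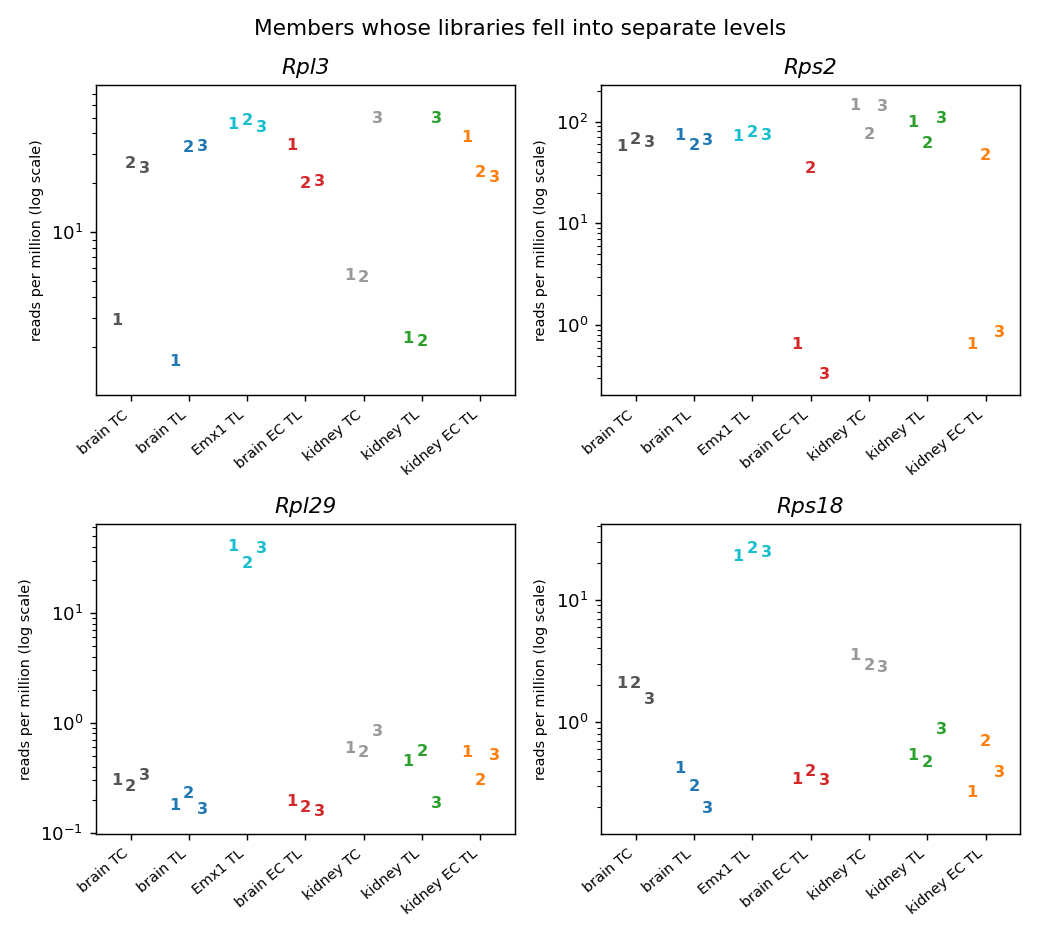
CPM, reads scaled to the library total (log scale), of Rpl3, Rps2, Rpl29 and Rps18 in each library, drawn as its replicate number, by group (TC, transcriptome; TL, translatome). Low Rpl3 libraries carry the same number in transcriptome and translatome, Rps2 is high in EC library 2 of both organs and low in libraries 1 and 3, and Rpl29 and Rps18 are high in the Emx1 libraries.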

How the data were processed

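Each of the 21 deposited tables gave a read count and an RPKM per RefSeq gene. The authors aligned TruSeq libraries to GRCm38 (mm10) with RUM and counted them over UCSC refGene with the rpkmforgenes script; read length and the handling of reads that fit several places are not given in the sources used here. Deposited counts were tested with edgeR 4.0.16 (quasi-likelihood, TMM), using only the compared groups, rows with at least 1 read, and Benjamini-Hochberg adjustment over all rows; genes were called at an adjusted p under 0.001. Deposited RPKM values, which the authors normalised by length and library, were used for levels. On simulated counts for brain translatome against transcriptome (19125 rows), 97 of 100 2-fold and 100 of 100 4-fold changes were recovered, with 14 false calls. Changed rows were drawn only from well-counted rows and libraries were simulated without pairing, so members with few reads are not covered.

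Members, gene lists and comparisons were chosen with earlier results of these data known. Named were Rpl10a, the P-stalk genes, Rpsa, Rps27a, paralogs, per comparison the 5 highest and 5 lowest fold changes above 5 RPKM, the highest and lowest levels, fixed genes of the other lists with each list's extremes, and members given as chosen for a call or split. Same-numbered transcriptome and translatome libraries came from the same tissue, and their deviations from the group means correlated at 0.39, 0.39 and 0.62 in brain and 0.67, 0.64 and 0.60 in kidney; those of brain and kidney EC did at 0.40, 0.14 and 0.17. Labels do not say whether replicates elsewhere share a litter, and p-values measure the spread between these libraries. Copies were sought with BLAST 2.17.0 over the coding sequence besides the planned whole mRNA. Alternatives were other scalings and filters, DESeq2 1.42.0, a fit of all libraries, a block, a run term and leaving out each library. No genome or protein sequences were used. Some genes are not reported here.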

Additional observations from a re-analysis of the deposited data

Results flagged for a closer look

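The test of the difference between organs flagged 7 members, whose translatome to transcriptome log2 fold change was larger in brain than in kidney: Rpl7 by 0.59, Rpl7a by 0.55, Rps9 by 0.55, Rplp1 by 0.51, Rps4x by 0.51, Rpl6 by 0.45 and Rpl23 by 0.43. With single libraries left out, between 2 and 9 members passed the threshold, and the number was 2 without brain transcriptome replicate 1, brain translatome replicate 1 or kidney transcriptome replicate 3. Groups of 3 libraries are too small for the test of single outlying libraries.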

How the results depend on the processing

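Directions of the medians held in each alternative run, and counts are those of members past the threshold. Counts over all rows are given only beside the translatome counts at an adjusted p under 0.05. The other counts were not set against the background. Scaling by total counts gave 2 higher and 31 lower in brain EC and 31 lower in kidney EC (medians -0.45 in both), and a median of -0.80 between transcriptomes. With the replicate block, members lower in the translatome were 5 in brain and 11 in kidney, 31 differed between organs, and 2 were lower in brain EC, where numbers share no tissue; the block moved no other count by over 1.5 times. The run term left 1 lower in the kidney translatome. DESeq2 gave 11 lower in brain EC, 5 in kidney EC and 20 differing between organs. A fit of all 21 samples gave 9 lower in brain EC, 7 in kidney EC and 1 in Emx1. At an adjusted p under 0.05, 5 of 83 members were lower in the brain and 11 of 83 in the kidney translatome. Over all rows, 5461 of 19446 were lower in brain and 5050 of 19336 in kidney. At the same threshold 8 members were higher and 22 lower in brain EC, 1 and 15 in kidney EC, and 19 and 7 in Emx1. A further 42 were lower in brain EC than kidney EC, 1 was higher and 74 lower between transcriptomes, and 33 differed between organs. Leaving out a library gave 2 to 5 lower in brain EC (2 without brain translatome or brain EC replicate 1 or 3), 0 to 1 higher and 2 to 4 lower in kidney EC (4 without kidney translatome replicate 1 or EC replicate 2), 1 to 6 lower in brain EC than kidney EC, 0 to 1 higher between transcriptomes and 2 to 9 differing between organs. Rpl10a in brain ranged from -0.10, without translatome replicate 1, to 0.13, uncalled throughout. Summing repeated rows moved the brain EC median to 25.5 RPKM, from 23.7. Copies over the coding sequence, added after seeing the data, were found for 78 members at 90% and 76 at 95% identity. The causes were not tested. Depth limits the paralogs Rpl3l and Rpl39l and members with few placeable reads, for which a few reads decide a fold change.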
